A study of Rattus norvegicus with 4 samples.

Results

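The globins and red cell genes are 7 genes of the red blood cell lineage: Hba-a2, Hbb, Hbb-b1, Ahsp, Alas2, Slc4a1 and Epb42. They were taken by gene name from arrays that carried 26688 genes or unnamed probes. By name, 9 probes of 6 genes were found. Ahsp was found under its older symbol Eraf through its accession, with 2 probes, which gave 11 probes in all out of 30367. RNA came from isolated pancreatic islets of Sprague Dawley rat pups killed on postnatal day 14. In 4 samples the pups had intrauterine growth restriction (IUGR) after ligation of both uterine arteries of the dam at embryonic day 18, and in 4 control samples the dam had sham surgery. Each of 4 two-colour arrays on 1 slide held 1 IUGR and 1 control sample. On array 1, IUGR replicate 2 (Cy5) was paired with control replicate 1, and on array 2, IUGR replicate 1 (Cy5) with control replicate 2. On array 3, IUGR replicate 4 (Cy3) was paired with control replicate 3, and on array 4, IUGR replicate 3 (Cy3) with control replicate 4. The labels give neither the pups' sex nor how many animals or litters made up a sample. With no statement that samples came from separate animals, p-values measure only the spread between these samples. Unless stated otherwise, this is the spread among arrays with IUGR in the same dye, the difference between dyes being taken out.

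Haemoglobin is a tetramer of alpha-like and beta-like globin chains, each holding a haem group. Its genes, the enzyme that starts erythroid haem synthesis and the proteins of the red cell membrane are made in erythroid precursors, and reticulocytes, the youngest circulating red cells, still carry their mRNA. Islets are densely vascularised, so RNA of an islet preparation can hold transcripts from blood. In such bulk RNA, fewer red cells and less RNA per cell cannot be told apart.

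The alpha-globin genes of the rat are close copies of one another, as are several of its beta-globin genes, so the probes matter for what each value means. Per the array annotation, probe A_64_P032502 of Hba-a2 (chr10:15585140-15585199, minus strand, rn4) lists mRNAs of both rat alpha genes that RefSeq now calls Hba-a1 and Hba-a2. The array's Hba-a2 accession is itself named Hba-a1 in RefSeq now. For Hbb-b1, probe A_64_P088393 (chr1:161597660-161597719, minus strand) lists only Hbb-b1, and probe A_64_P088392 (chr1:161590854-161590913, minus strand) lists Hbb-b1 and Hbb-bs. The Alas2 probe (chrX:39810353-39810412) and the Ahsp probe A_64_P150726 (chr1:187561484-187561543), both on the plus strand, list 1 gene each. Their sequences are shown because which paralogs a globin probe can bind decides what it measures. Capitals mark the start codon in the first, of which only the 43 bases from that codon on are printed (chr10:15585140-15585182), and the stop codon in the last.
A_64_P032502 (Hba-a2): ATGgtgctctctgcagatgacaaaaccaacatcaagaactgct
A_64_P088392 (Hbb-b1): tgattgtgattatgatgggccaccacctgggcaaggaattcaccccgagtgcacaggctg
A_64_P088393 (Hbb-b1): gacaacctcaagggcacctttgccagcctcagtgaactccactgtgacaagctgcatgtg
A_44_P541461 (Alas2): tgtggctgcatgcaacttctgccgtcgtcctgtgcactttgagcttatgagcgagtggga
A_64_P150726 (Ahsp): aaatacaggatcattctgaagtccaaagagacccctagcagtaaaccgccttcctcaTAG

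The remaining probes were A_64_P032499 for Hba-a2 (chr10:15584360-15584419), A_64_P028036 (chr1:161584872-161584931) and A_44_P306307 (chr1:161620134-161620193) for Hbb, A_44_P289637 for Slc4a1 (chr10:91455352-91455411), A_64_P142759 for Epb42 (chr3:107808613-107808672), and A_43_P16887 for Ahsp (chr1:187561567-187561626). The Hbb probe A_64_P028036 lists the mRNAs of Hbb, Hbbl1 and Hbb-b1, so its value is not that of Hbb alone. How much each globin probe bound the other copies was not tested.

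RefSeq promoters (GRCr8) were found for 5 of the 7 genes, namely the array's Hba-a2 gene under its present name Hba-a1, and Hbb, Hbb-b1, Alas2 and Epb42. The 150 bases before the start are printed for 4 of them because these genes had similar patterns over the samples. Capitals mark 4 motifs searched on both strands in the 250 bases before the start: GATAA (the core bound by GATA factors), CACCC (bound by Klf1), CCAAT and TATAA. The windows are chr10:15842581-15842730 (Hba-a1), chr1:167663722-167663871 (Hbb) and chr1:167643521-167643670 (Hbb-b1), on the minus strand, and chrX:22895300-22895449 (Alas2), on the plus strand.
Hba-a1 promoter: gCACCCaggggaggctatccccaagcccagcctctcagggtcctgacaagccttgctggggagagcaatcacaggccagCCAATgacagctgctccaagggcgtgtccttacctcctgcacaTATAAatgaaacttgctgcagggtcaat
Hbb promoter: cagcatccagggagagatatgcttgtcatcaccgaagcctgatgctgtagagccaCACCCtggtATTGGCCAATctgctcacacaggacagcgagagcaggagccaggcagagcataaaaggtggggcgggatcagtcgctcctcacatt
Hbb-b1 promoter: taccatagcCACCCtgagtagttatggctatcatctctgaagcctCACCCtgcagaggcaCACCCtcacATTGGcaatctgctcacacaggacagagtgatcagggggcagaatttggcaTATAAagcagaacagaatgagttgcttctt
Alas2 promoter: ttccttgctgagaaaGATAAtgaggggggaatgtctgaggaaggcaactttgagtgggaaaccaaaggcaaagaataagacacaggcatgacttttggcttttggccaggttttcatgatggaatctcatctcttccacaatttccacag

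CACCC was found 3 times before Hbb-b1 and 1 time each before Hbb and Hba-a1. CCAAT or its reverse was found before all 3 globin genes, at bases -86 and -81 before Hbb. GATAA was found at base -135 before Alas2 and at base -164 before Hba-a1, and TATAA before Hba-a1 and Hbb-b1. Hbb and Hbb-b1 held no GATAA, Hbb no TATAA, and Alas2 no motif other than GATAA. The window of Epb42 held 0 matches to each of the 4 motifs. Among 33469 rat promoters, 23.5% held GATAA, 49.2% CACCC, 34.0% CCAAT and 24.0% TATAA in a window of this length. The windows of the alpha genes Hba-a1 and Hba-a2 were the same at 241 of 250 bases (96.4%). A match is a description of the letters and not of a bound site.

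All 10 probes of Hba-a2, Hbb, Hbb-b1, Ahsp, Alas2 and Slc4a1 were well above background in 4 of 4 IUGR and 4 of 4 control channels. Epb42, which encodes a protein of the red cell membrane skeleton, was well above background in 0 IUGR and 0 control channels and was not tested. Thus 6 of the 7 genes were tested, among 20160 genes or unnamed probes. A gene had to be well above background in at least 2 channels of either group. Transcripts of the tissue were present: Ins1, Ins2, Gcg and Sst were all tested.

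In these islets no globin or red cell gene passed the test between IUGR and control. Ratios of IUGR over control had a mean above 0 for each of the 6 tested genes, between 0.33 and 0.67 on the log2 scale, but the arrays disagreed in sign. All 6 genes were below 0 on array 1 and above 0 on arrays 3 and 4, a pattern shown by 23.6% of all tested genes. None of them (0 of 6) was above 0 on all 4 arrays, as 11% of tested genes were. The values of each gene follow, in the order alpha chain, beta chains, globin chaperone, haem enzyme and membrane proteins.

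Hba-a2 encodes an alpha-globin chain. Its normalized log2 intensity was 16.90, 16.55, 17.12 and 17.59 in IUGR replicates 1 to 4, against 16.76, 16.47, 16.96 and 16.61 in control replicates 1 to 4. The groups overlapped, and IUGR replicates 4 and 3 were the highest of the 8 samples. The log2 ratio was -0.21, 0.43, 0.63 and 0.51 on arrays 1 to 4, with a mean of 0.34 ± 0.13 (moderated SE, n = 4 arrays), a 1.27-fold difference, and a limma adjusted p of 0.339. The moderated SE leaves out the difference between dye orientations. The control channel of this probe had an outlying local background on array 3, which was replaced by the median background of that channel. The second probe, which lists both alpha genes, gave -0.18, -0.26, 1.17 and 1.11, so it was below 0 on array 2, where the first was above 0.

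Hbb encodes the adult beta chain. Its level was 15.80, 15.69, 16.74 and 17.27 in IUGR replicates 1 to 4, against 16.05, 15.57, 15.89 and 15.45 in control replicates 1 to 4. Again IUGR replicates 4 and 3 were the highest, while the other two IUGR samples lay among the controls. The log2 ratio was -0.37, 0.23, 1.38 and 1.29 on arrays 1 to 4, with a mean of 0.63 ± 0.12 (moderated SE, n = 4 arrays) and a limma adjusted p of 0.339. The probe that lists Hbb alone had a larger mean of 1.26 ± 0.33, with ratios of -0.28, 1.43, 2.43 and 1.45.

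Hbb-b1 encodes another adult beta chain. Its level was 15.51, 15.27, 16.43 and 16.64 in IUGR replicates 1 to 4, against 15.67, 15.55, 15.91 and 15.39 in control replicates 1 to 4. IUGR replicates 4 and 3 were above every control, and IUGR replicate 2 was below every control. The log2 ratio was -0.40, -0.04, 0.73 and 1.04 on arrays 1 to 4, with a mean of 0.33 ± 0.11 (moderated SE, n = 4 arrays) and a limma adjusted p of 0.339. Its second probe gave -0.53, -0.07, 1.03 and 1.11, the same signs array by array.

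Ahsp encodes the chaperone that binds and stabilises free alpha-globin. Its level was 9.18, 9.46, 10.58 and 11.79 in IUGR replicates 1 to 4, against 11.11, 9.44, 9.02 and 8.77 in control replicates 1 to 4. The highest sample was IUGR replicate 4 and the next was control replicate 1, so the groups were interleaved. The log2 ratio was -1.65, -0.26, 2.77 and 1.82 on arrays 1 to 4, with a mean of 0.67 ± 0.28 (moderated SE, n = 4 arrays) and a limma adjusted p of 0.339. The other Ahsp probe gave -1.57, -0.49, 2.59 and 1.66.

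Alas2 encodes the erythroid enzyme that starts haem synthesis. Its level was 9.66, 9.77, 10.27 and 11.12 in IUGR replicates 1 to 4, against 9.91, 9.30, 9.79 and 9.39 in control replicates 1 to 4. IUGR replicates 4 and 3 were again above every control. The log2 ratio was -0.14, 0.36, 1.33 and 0.87 on arrays 1 to 4, with a mean of 0.61 ± 0.13 (moderated SE, n = 4 arrays) and a limma adjusted p of 0.339.

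Slc4a1 encodes band 3, the anion exchanger of the red cell membrane. Its level was 7.86, 7.47, 8.47 and 9.70 in IUGR replicates 1 to 4, against 8.51, 7.87, 7.68 and 7.04 in control replicates 1 to 4. Control replicate 1 was the second highest sample. The log2 ratio was -1.04, -0.01, 2.01 and 1.43 on arrays 1 to 4, with a mean of 0.60 ± 0.21 (moderated SE, n = 4 arrays) and a limma adjusted p of 0.339. Epb42, also a membrane gene, had ratios between -0.16 and 0.22, with both channels not well above background on every array, so no fold is given.

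**Figure D1:**
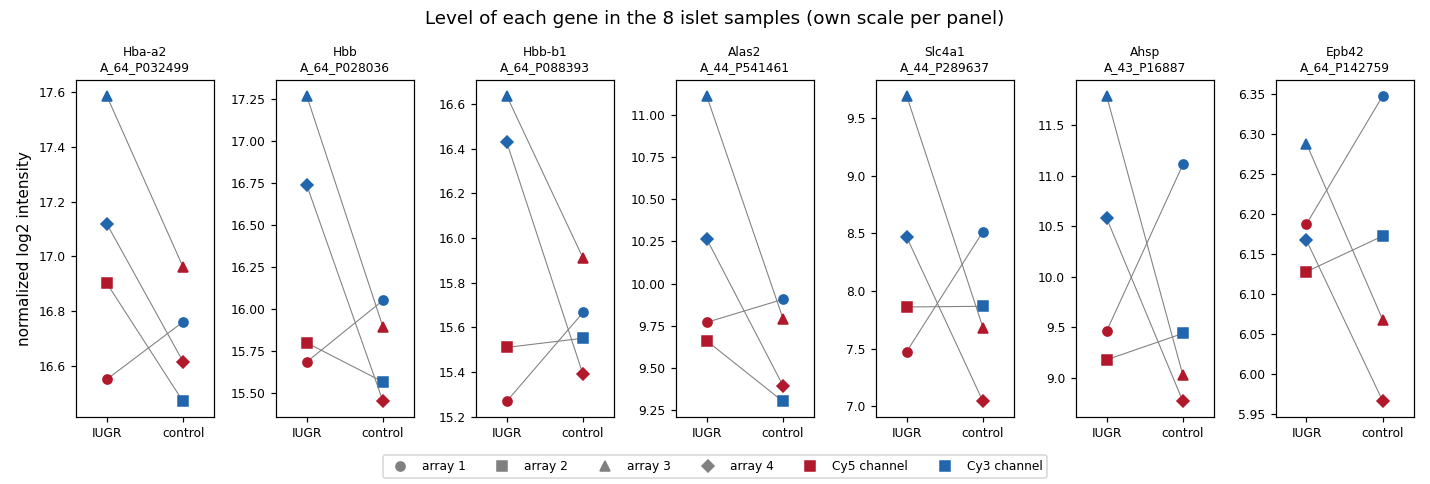
Normalized log2 intensity (vertical axis, own scale in each panel) of each gene in the 4 IUGR and 4 control samples, with lines joining the samples of 1 array, shapes for arrays and colours for dyes. IUGR replicate 4 (array 3, triangles) was the highest sample for all 6 tested genes, and the 2 groups overlapped for every gene.

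Over all 10 tested probes, IUGR replicate 4 was the highest sample. The next was IUGR replicate 3 for 7 probes and control replicate 1 for 3 probes (Slc4a1 and both of Ahsp). No tested gene (0 of 6) had all 4 IUGR levels above all 4 control levels, as 1.41% of all tested genes had.

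Across the 20160 tested genes, limma called 0 genes (0%) at an adjusted p under 0.05. At an unadjusted p under 0.05, 1435 genes (7.12%) were higher in IUGR and 1324 (6.57%) were lower. Of the 6 tested members, 5 had an unadjusted p under 0.05 with a higher mean in IUGR and 0 with a lower one, the exception being Ahsp. These p-values leave out the difference between dye orientations. Without the dye term, limma called 0 members, with adjusted p from 0.345 for Alas2 to 0.628 for Ahsp. The median ratio of the 6 members was 0.60, against 0.01 for all tested genes. Without Ahsp, which was matched through its older symbol, it was also 0.60. This median is a description, since the genes share samples and dyes and are not independent.

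**Figure D2:**
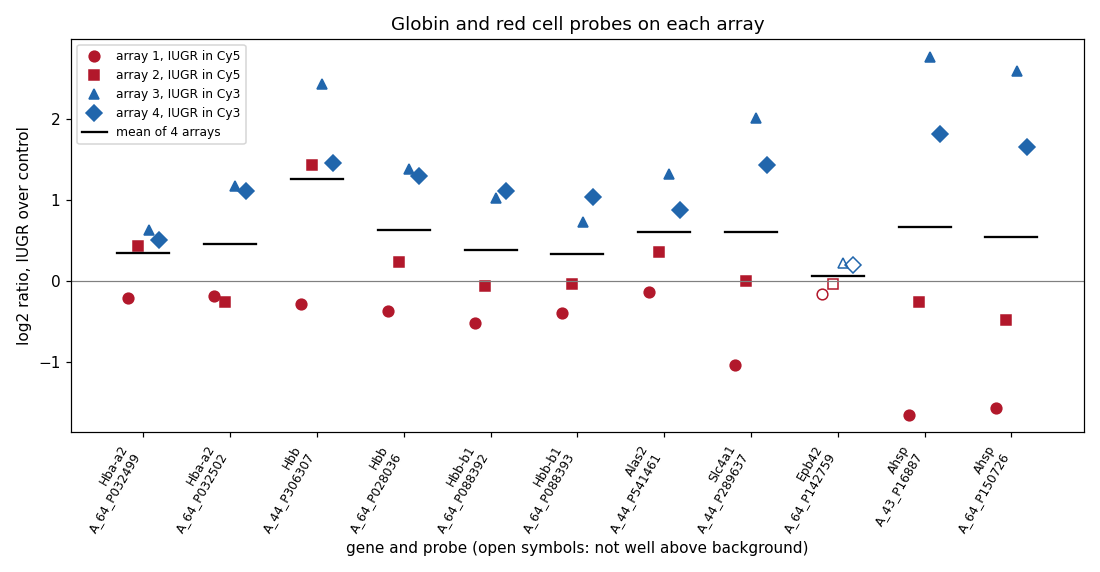
Log2 ratio of IUGR over control (vertical axis) for all 11 probes, with 1 symbol per array, red for IUGR in Cy5 and blue for IUGR in Cy3, and a bar for the mean of the 4 arrays. For every tested probe the blue arrays 3 and 4 lay above 0 and array 1 lay below 0.

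The dye orientations were set apart. The orientation difference is the mean ratio with IUGR in Cy5 (arrays 1 and 2) minus that with IUGR in Cy3 (arrays 3 and 4). With IUGR in Cy5 the mean ratio was 0.11 for Hba-a2, -0.07 for Hbb, -0.22 for Hbb-b1, 0.11 for Alas2, -0.52 for Slc4a1 and -0.96 for Ahsp. With IUGR in Cy3 it was 0.57, 1.33, 0.89, 1.099, 1.72 and 2.29 for the same genes in that order. The orientation difference was therefore below 0 for all 6, at -0.46, -1.40, -1.11, -0.99, -2.25 and -3.25. Its median was -1.25 for the members and 0.01 over all tested genes, whose median size without sign was 0.19. Each orientation holds different samples, so the dye and the sample cannot be told apart in this difference.

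Limma called 0 genes (0%) for the dye term at an adjusted p under 0.05. The adjusted p of the members was 0.501, except for Hba-a2 at 0.628. At an unadjusted p under 0.05, 915 tested genes (4.54%) were lower with IUGR in Cy5 and 948 (4.7%) were higher. Of the members, 5 of 6 were lower and 0 were higher, with Hba-a2 the exception. That exception holds for the brightest probe of Hba-a2, whose control background on array 3 was replaced. The second Hba-a2 probe had an orientation difference of -1.36 (limma adjusted p = 0.540 with every probe on its own), and at an unadjusted p under 0.05 it was lower with IUGR in Cy5. With outlying backgrounds left out, this probe stood for the gene. For Hbb, the probe that lists Hbb alone had an orientation difference of -1.37 (limma adjusted p = 0.614 with every probe on its own). Its unadjusted p was not under 0.05, so the count for Hbb rests on the probe that also lists Hbbl1 and Hbb-b1.

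**Figure D3:**
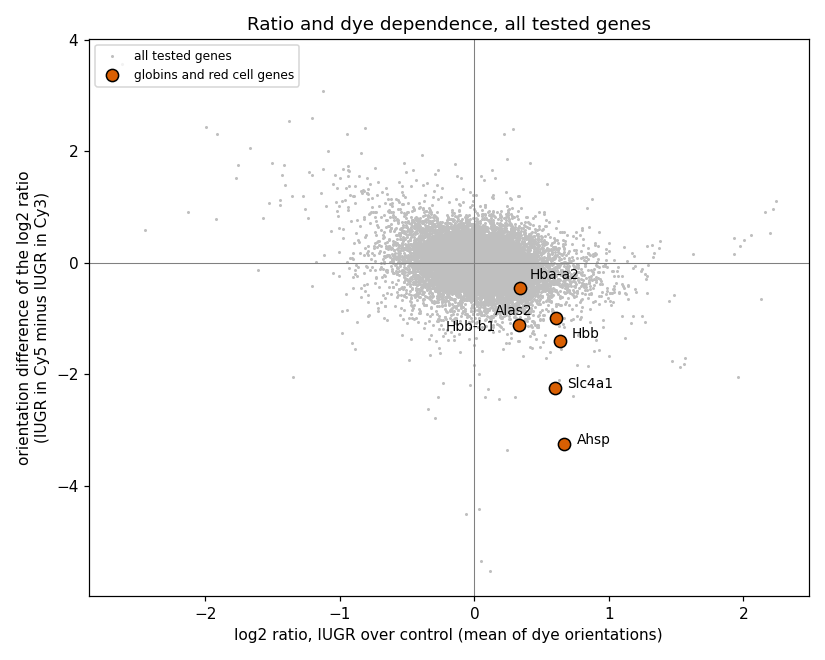
Mean log2 ratio of IUGR over control (horizontal axis) against the orientation difference of that ratio (vertical axis) for all tested genes (grey) and the 6 tested members (orange). The members lay right of 0 and below 0, from Hba-a2 at -0.46 to Ahsp at -3.25 on the vertical axis.

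Seen by dye without regard to group, the Cy3 channel was above the Cy5 channel on all 4 arrays for Hbb-b1, Slc4a1 and Ahsp, 3 of the 6 tested genes, against 7.25% of all tested genes. The second Hba-a2 probe, which did not stand for its gene, also had Cy3 above Cy5 on all 4 arrays. For Slc4a1 all 4 Cy3 levels (7.87 to 9.70) were above all 4 Cy5 levels (7.04 to 7.86). That held for 1 of the 6 genes and for 1.4% of all tested genes. For Ahsp the Cy3 levels ran from 9.44 to 11.79 and the Cy5 levels from 8.77 to 9.46. Its other probe had Cy3 levels of 8.98 to 11.00, all above its Cy5 levels of 8.22 to 8.70.

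Channel brightness differed between the arrays. The median log2 ratio of the raw signals, IUGR channel over control channel, was 1.62 on array 1 and -1.34, -2.25 and -1.43 on arrays 2 to 4. Array 1 was thus the one array with a brighter IUGR channel and the one with ratios below 0 for all 6 genes. Arrays 2 and 4 were almost equally bright, at -1.34 and -1.43, while the members' median ratio was 0.11 on array 2 and 1.17 on array 4. The part of brightness in the ratios was not tested beyond a covariate. No spot was saturated (0 on each array). Over all tested genes, ratios correlated at r = 0.13 between arrays 1 and 2 and at 0.63 between arrays 3 and 4, the pairs of 1 orientation. Between orientations r was -0.23 for arrays 1 and 3, -0.30 for arrays 1 and 4, 0.63 for arrays 2 and 3 and 0.37 for arrays 2 and 4. Genes are not independent replicates. With channel brightness as a covariate, which left 1 residual degree of freedom, the members' median ratio was 0.27.

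The direction of the mean for Hba-a2 and Hbb-b1, and of single array ratios for other members, also rested on how the arrays were normalized. With each array centred on its median in place of loess, which corrects for dye bias by intensity, the log2 ratio of Hbb was 0.77, -0.36, 0.00017 and 0.38 on arrays 1 to 4. Hba-a2 was then 1.04, -0.11, -0.84 and -0.50, so its mean turned to -0.10, and that of Hbb-b1 turned to -0.11. Slc4a1 (-1.06, 0.03, 1.69 and 1.49) and Ahsp (-1.20, -0.86, 2.08 and 1.51) kept a negative ratio on array 1 and positive ratios on arrays 3 and 4. The members' median was 0.24 under median centring. It was 0.39 with outlying local backgrounds kept as measured, where array 3 gave 0.47 for Slc4a1 and 1.81 for Ahsp, and 0.33 without array 2. In the authors' deposited table, the ratios turned to IUGR over control were -0.36, 0.22, 1.37 and 1.29 for Hbb and -1.73, -0.27, 2.83 and 1.87 for Ahsp.

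**Figure D4:**
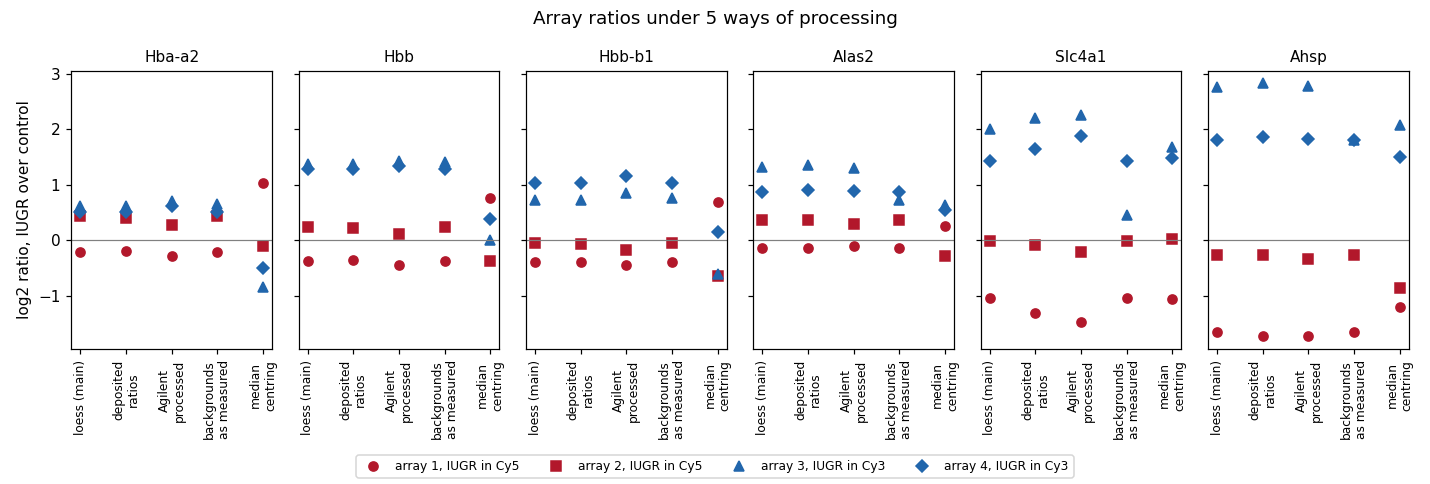
Log2 ratio of IUGR over control on each array (vertical axis) for the 6 tested genes under 5 ways of processing (horizontal axis), with shapes for arrays and colours for the dye of the IUGR sample. Loess, the deposited ratios and Agilent's processed signals gave similar values, and median centring moved array 1 of Hba-a2, Hbb, Hbb-b1 and Alas2 above 0.

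The members varied together over the 8 samples. Pearson's r between their levels was between 0.68 and 0.97 over the 15 pairs of tested members, with a median of 0.90. Of all tested genes, members included, 0.288% had an r above 0.9 with the members' mean centred level. The samples share arrays and dyes, and the Hbb probe also lists the mRNA of Hbb-b1, so this is a description. By the same measure, the 5 other named genes most like the members' mean centred level were Alox15 (r = 0.983), LOC689064 (0.982), Ier5l (0.978), Tbx2 (0.973) and Ifi35 (0.961). Alox15 encodes a lipoxygenase that is known from rabbit reticulocytes, and LOC689064 is the beta-globin gene that RefSeq now calls Hbb-bs. How much the LOC689064 probe and the members' beta-globin probes bound the same mRNAs was not tested. Ratios on arrays 1 to 4 were -0.33, 0.17, 1.92 and 1.63 for Alox15. They were -0.61, 0.31, 1.70 and 1.65 for LOC689064.

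Other genes of the red cell programme are described by lists chosen with earlier results of these data known. No gene in any list passed the test (0 called of each list), and every gene named from them had a limma adjusted p of 0.339 or more. Their ratios are means over the 4 arrays with the moderated SE. The median ratio of all tested genes was 0.01, so a ratio above 0 was common. Among the other globins, 8 genes were tested, 5 with a ratio above 0, and the list's median was 0.03. LOC689064 had a ratio of 0.76 ± 0.17, and the epsilon-like globin gene Hbe2 had 0.44 ± 0.10, with array ratios of -0.36, 0.02, 1.02 and 1.07. The other embryonic-type globins Hbz and Hbg1 had ratios of 0.02 and -0.01, and Hbe1 was not well above background in any channel (0 IUGR and 0 control). LOC287167, which RefSeq now calls Hba-a3, had array ratios of 0.28, -0.16, 0.81 and 0.44, so unlike the members it was above 0 on array 1. Of the 8 genes, 7 had an orientation difference below 0, LOC287167 among them.

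In haem synthesis 12 genes were tested, 9 of them above 0, with a median of 0.03. Alad, the enzyme after Alas2 in the pathway, had a ratio of 0.35 ± 0.11, and Fech, which inserts iron into the ring, had 0.36 ± 0.14. Their array ratios were -0.33, 0.20, 0.79 and 0.73 for Alad and -0.08, 0.22, 0.98 and 0.32 for Fech. Alas1, the housekeeping counterpart of Alas2, had a ratio of -0.02.

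In the red cell membrane and skeleton list 13 genes were tested, 10 of them above 0, with a median of 0.12. The glucose transporter gene Slc2a1 had a ratio of -0.49 ± 0.15, and Tmcc2 had 0.21 ± 0.08. Rhag, which encodes the Rh-associated glycoprotein, had array ratios of -0.84, -0.12, 1.05 and 0.46. Not every gene showed this pattern: Epb49 had 0.38, 0.29, 0.40 and -0.11, and Gypc -0.15, -0.26, 0.05 and -0.26. Of the 13 genes, 10 had an orientation difference below 0.

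Of 8 erythroid transcription factors tested, 5 were above 0 and the median was 0.06. An orientation difference below 0 was found for 7 of these 8 genes and for 5 of the 12 haem synthesis genes. Tal1 had a ratio of -0.39 ± 0.11 and Nfe2 of 0.23 ± 0.10. Gata1, the master regulator of red cell genes, had 0.14 and Klf1, the activator of adult beta-globin, 0.12. In the list of erythropoietin and iron uptake genes, 2 of 7 were above 0 and the median was -0.08. There the erythropoietin receptor gene Epor had a ratio of -0.18 ± 0.08 and the ferritin light chain gene Ftl -0.25 ± 0.13.

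Among 10 red cell enzymes, 3 were above 0 and the median was -0.05. Gclc of glutathione synthesis had a ratio of -0.44 ± 0.15 and the pyruvate kinase gene Pklr 0.19 ± 0.08. Car1 had array ratios of 0.16, 1.04, 0.10 and -0.16, unlike the members, and 5 of the 10 genes had an orientation difference below 0. All 7 tested genes of reticulocyte maturation were above 0, with a median of 0.07, from Bnip3l at 0.01 to Alox15 at 0.85 ± 0.12. Ube2o had a ratio of 0.26 ± 0.12. All 8 tested genes of haemoglobin and haem clearance were also above 0, with a median of 0.14, though Slc40a1 (0.009) and Hp (0.02) were close to 0. Cd163, the macrophage receptor for haptoglobin-bound haemoglobin, had a ratio of 0.89 ± 0.14, with array ratios of 0.34, 1.03, 1.15 and 1.02, so it was above 0 on every array, unlike the members. Lrp1, a receptor that takes up haem bound to haemopexin, had 0.61 ± 0.13.

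**Figure D5:**
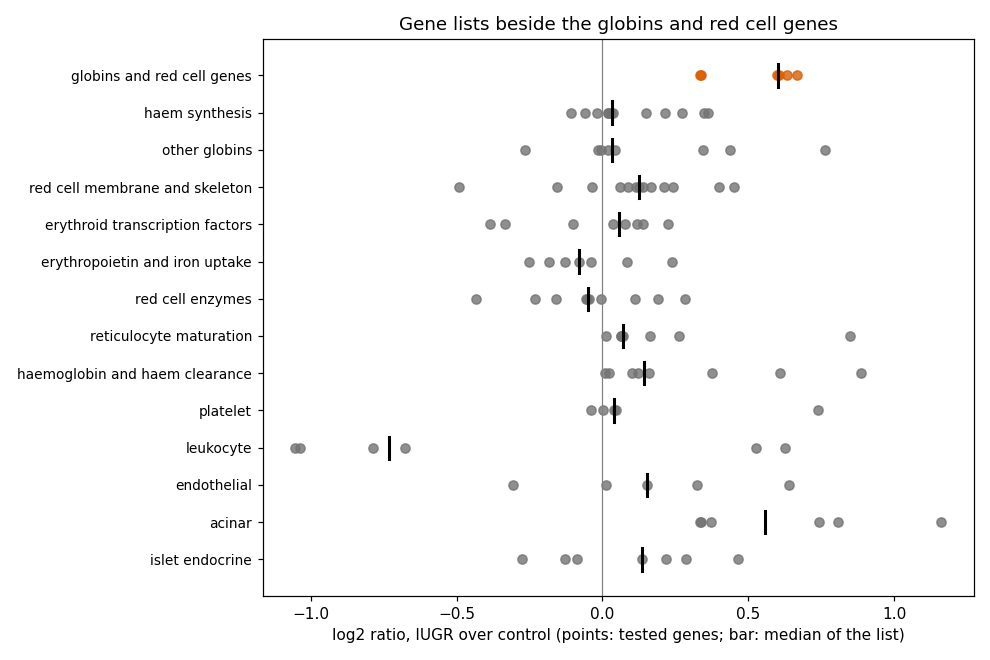
Mean log2 ratio of IUGR over control (horizontal axis) for the tested genes of each list (points) with the median of the list (bars). The median of the globins and red cell genes was 0.60, and those of the red cell lists ran from -0.08 to 0.14.

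Markers of other cells that an islet preparation can hold are given beside these values. Of the 5 platelet genes tested, 4 were above 0 (median 0.04), with Pf4 at 0.74 ± 0.27 and Gp5 at 0.05. Of the 6 leukocyte genes, 2 were above 0 (median -0.73), with Lyz2 at -0.68 ± 0.12 and Cd79b at -1.05 ± 0.18. The genes above 0 were S100a8 and S100a9, which encode calcium-binding proteins abundant in neutrophils. S100a8 had a ratio of 0.63 ± 0.37, with array ratios of -1.07, 1.19, 1.09 and 1.30. S100a9 had 0.53 ± 0.36, with -1.20, 0.96, 1.02 and 1.32. Both were thus below 0 on array 1 and above 0 on arrays 3 and 4, as the members were. They were also above 0 on array 2, as were Hba-a2, Hbb and Alas2 among the members. Of the 5 endothelial genes, 4 were above 0 (median 0.15) and 5 had an orientation difference below 0 (median -0.93), with Vwf at -0.31 ± 0.09 and Tek at 0.33 ± 0.10. List medians of the endothelial genes were -0.57, 0.03, 0.48 and 0.58 on arrays 1 to 4. Vwf, Tek, Cdh5, Kdr and Pecam1 were each below 0 on array 1 and above 0 on arrays 3 and 4, as the members were. Of all tested genes, 23.6% had that pattern.

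All 6 acinar genes were above 0 (median 0.56), with list medians of 0.62, 0.17, 2.02 and -0.13 on arrays 1 to 4. Their orientation difference was below 0 for all 6 (median -0.60), the same sign as that of the members. Amy2 had a ratio of 1.16 ± 0.52 and Cela1 of 0.81 ± 0.48. The islet endocrine genes had a median ratio of 0.14 and a median orientation difference of 1.32, opposite in sign to that of the members. The median orientation difference of the leukocyte genes, 0.87, was also opposite in sign. Sst had a ratio of -0.28 ± 0.09, Ins2 of 0.29 ± 0.11, Ins1 of 0.22 and Gcg of -0.13. Ratios of Ins2 were 1.26, 1.72, -1.03 and -0.79 on arrays 1 to 4. The part of these other cells in the members' values was not tested.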

How the data were processed

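The members and the gene lists were chosen with earlier results of these data known. Scanner files were made with Agilent Feature Extraction 10.10.1.1 (protocol GE2_1010_Sep10, design 028282), per the file headers. The deposited files hold spot signals and local backgrounds in units of intensity, a log10 ratio that was not used, and flags per spot, which are other deposited columns. The authors' deposited value table holds log2 ratios made with limma, per the submitters' processing notes, with direction and settings not given in the sources used here. Set against the scanner values spot by spot in file order, it held Cy5 over Cy3, with column medians from -0.029 to 0.008 and r from 0.986 to 0.998 against loess ratios without background subtraction.

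The analysis used limma 3.58.1 (R 4.3.3, statmod 1.5.0) and began with normexp background correction at an offset of 50. Outlying local backgrounds were set to the median of their array and channel, and feature outliers were left out. Loess was run within arrays, giving control spots no weight, and spots were averaged by probe. All ratios were oriented as IUGR over control. The brightest probe stood for each gene. Limma fitted the ratio with a dye term (2 residual and 2.755 prior degrees of freedom) over 20160 genes or unnamed probes, with Benjamini-Hochberg adjustment. SEs are moderated with the dye difference taken out. Levels are loess and Aquantile values of each channel. The fit was tested on simulated data. The number of arrays (4) limits the precision.

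Named genes were the members, the called genes of each list or else the 2 with the smallest p, the tissue markers, and the 5 named genes most like the members. Other list genes named, and the counts by dye without regard to group, were chosen after their values were seen. By accession, 17998 of 30367 probes (59.27%) matched RefSeq (GRCr8), used for names and promoters; probe coordinates are rn4, per the file headers. Replicate numbers were not used as pairs in the main fit, as no label says that they pair samples. Same-numbered samples correlated at r from -0.29 to 0.08, but lay on different arrays and in opposite dyes.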

Additional observations from a re-analysis of the deposited data

How the results depend on the processing

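Over 19 alternatives, 0 of the 6 tested members were called in 18, and 0 had a called dye term in the 18 that held one. Leaving out 1 array at a time, with 1 residual degree of freedom, called 0 members and 0 genes each time, also for the dye term, and the members' median ratio was 0.33 to 0.76. When arrays were median-centred instead of loess-normalized, 15 genes and 2 dye terms were called over all genes. Log2 ratios were then -0.11 for Hbb-b1 and -0.10 for Hba-a2, and orientation differences were 0.25 for Hbb-b1, 0.014 for Hbb and 1.14 for Hba-a2. The cause was not tested. With channel brightness as a covariate, 7 genes and no member were called. The separate-channel fit with the replicate number as a replicate block called 2335 genes, among them 2 members, Hbb (adjusted p = 0.0301) and Alas2 (adjusted p = 0.0499). No label says that the numbers pair the samples. Same-numbered samples correlated at -0.05, -0.29, 0.08 and -0.17, and not every sample correlated best with its own number. Such samples were on different arrays and in opposite dyes, so these correlations cannot decide whether the numbers pair them. The same fit without the block called 0 genes. Epb42, above background in no channel, has neither a fold nor a bound.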
